A study of Panax notoginseng with 2 samples.

Results

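Spliced reference genes of Panax notoginseng, a medicinal plant of the ginseng genus, were compared between 2 root libraries. They were chosen as loci whose listed transcript carries the Cufflinks class code for an exact match to an annotated intron chain ("="), whose listed exon covers less than the whole locus, and whose locus has 500 bases or more. The rule found 64368 of the 147111 loci, or 53.8% of the 119648 loci with reference structure. These loci lay on 22354 of the 32485 scaffolds and contigs, at up to 36 on a single scaffold. No expression value entered the rule, but the class code it uses depends on an assembly of reads.

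Both libraries came from roots of field-grown plants from Kunming. In the cadmium group the plants received 5 µM cadmium, and the control group had no treatment. Each group held 1 library, and the labels give no cultivar, plant age, exposure time or number of plants pooled. Differences between the libraries therefore have no replicate check, no p-value can be given, and treatment and library cannot be told apart. The labelled tissue could not be checked against root markers, because the files pair loci with reference gene identifiers and with no gene name, function or sequence.

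A gene with introns is transcribed whole, and the spliceosome then removes the introns and joins the exons. An assembler of RNA reads retraces those junctions and compares them with the annotated gene. A locus keeps the reference code when the assembled junctions match the annotation, or when the annotation itself is carried into the merged set without reads. Loci where reads joined exons in another way are coded as new splice forms ("j"). Cadmium is taken up by roots through transporters of essential metals, and root cells bind it with thiol peptides and store it in vacuoles. No gene of those pathways could be named here.

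Most of the spliced reference genes had no measured transcript. FPKM, the authors' fragment density per kilobase scaled to library size, was 0 in both libraries for 51254 of them (79.6%). The control library had values above 0 for 12300 and the cadmium library for 7028. Of these, 6086 were above 0 in the control alone, 814 in cadmium alone and 6214 in both. At least 1 FPKM in at least 1 library was reached by 6628 loci (10.3%), here called the expressed loci. A further 6486 stood above 0 and below 1 FPKM in both. Among new splice forms of 500 bases or more, 92.2% of 16117 reached 1 FPKM, and among intronless reference genes of that length 12.01% of 12743 did. The class of a locus depends on an assembly of reads, so class and detection are not independent.

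The splicing label could be read from the span for most loci, with a limit. For 62206 loci the span belonged to 1 locus, and in all 62206 the listed exon began at the locus start. That it ended before the locus end follows from the rule of choice and is no separate check of splicing. The other 2162 (3.36%) shared their span with at least 1 more locus, in 1617 spans that held up to 13 loci. The other occupants of those spans included 1058 new splice forms, 384 antisense and 379 intergenic loci. For a shared span the locus length is that of a bundle of overlapping loci, and the listed exon began inside the span in 1668 of the 2162. A short listed exon does not by itself show an intron there. Shared-span loci were expressed more often, with 1083 of 2162 (50.1%) at 1 FPKM, against 5545 of 62206 (8.91%). The new splice forms, antisense and intergenic loci in those spans were assembled from reads, so sharing a span and being expressed are not independent.

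An exon file covering 1694 loci gave the full structure of 241 of the spliced reference genes with a single transcript, and all 241 had at least 2 exons. There were 136 with 2 exons, 61 with 3 and 44 with 4 or more, up to 13. Their spliced length ran from 153 to 2436 bases with a median of 624, in loci with a median length of 953 bases. The 452 introns had a median of 113 bases and ran from 21 to 2473. Spliced length was a multiple of 3 in 220 of the 241 (91.3%), and locus length was in 97.8% of the intronless reference genes, so most of these models hold coding length without untranslated ends. The 241 lie on short contigs listed first in the file, no locus among them is longer than 3296 bases, and they do not stand for the long loci.

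Locus lengths of the spliced reference genes were mostly short. The median was 1390 bases, the middle range (25th to 75th percentile) was 868 to 2525 bases, and 42380 (65.8%) were under 2000 bases. At 10000 bases or more there were 2087, and 26 reached 100000. The listed exon had a median share of 12.97% of the locus. Expressed loci were longer, with a median of 2940.5 bases against 1234.5 for loci at 0 in both libraries, shared spans included. With a span of their own, the medians were 2475 against 1208 bases on the plus strand and 2440 against 1237 on the minus strand. Just inside the length limit, at 500 to under 550 bases, 91 of 2051 loci were expressed, with a median log2 ratio of cadmium to control of -1.63. Just outside it, at 450 to under 500 bases, 114 of 2041 spliced reference loci were expressed, with a median of -1.70.

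The listed exon is the leftmost in genome order, which makes it the 5′ exon of a plus-strand gene and the 3′ exon of a minus-strand gene. The 2 strands therefore describe different ends of the genes. Among loci with a span of their own, the 5′ exons had a median of 146 bases (n = 30979) and the 3′ exons a median of 255 bases (n = 31227). In the expressed loci the medians were 160 and 213.5 bases, and in loci at 0 in both libraries 142 and 258 bases. Exons of 1000 bases or more made up 4.0% of expressed 5′ exons against 0.58% in loci at 0. For 3′ exons the shares were 6.54% and 0.65%. Exon length was a multiple of 3 for 44.4% of 5′ exons and 49.3% of 3′ exons, with the other remainders at 23.7 to 30.04% each.

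**Figure D1:**
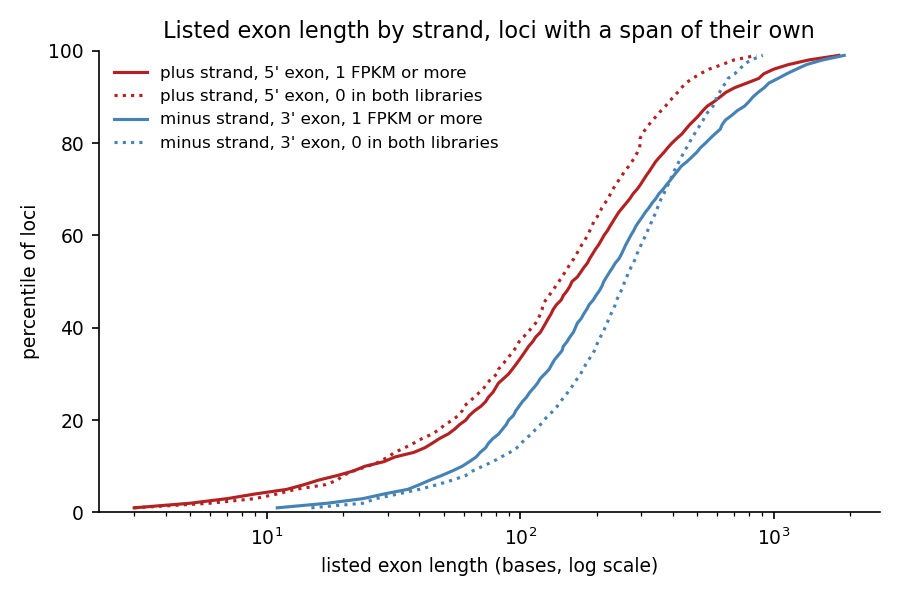
Percentile of loci (y axis) against listed exon length in bases (x axis, log scale), for spliced reference genes with a span of their own. Solid lines are expressed loci (1 FPKM or more in 1 library) and dotted lines are loci at 0 in both; the plus-strand 5′ exons (red, median 160 bases when expressed) lie left of the minus-strand 3′ exons (blue, median 213.5).

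Very short listed exons belonged mostly to the 5′ end. Under 10 bases there were 1276 of the 64368 loci, and 162 of the 6628 expressed ones. Among loci with a span of their own, 1062 such exons lay on the plus and 188 on the minus strand. Exactly 3 bases, the size of a start codon, were listed for 363 plus-strand and 15 minus-strand loci. The highest expressed plus-strand examples, chosen after their values were seen, were these. The locus scaffold1933:99400-102774 stood at 160.5 FPKM in the control library and 233.4 in cadmium. A locus in the shared span scaffold21588:2-14741 stood at 223.05 FPKM in the control library and 152.0 in cadmium. Neither differed by 2-fold between the libraries.

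Levels in the expressed loci were low and uneven. Among loci at 1 FPKM or more in the library concerned, the median was 5.69 FPKM in the control (n = 6043) and 7.03 FPKM in cadmium (n = 3908). In the control 2259 loci reached 10 FPKM, 303 reached 100 and 21 reached 1000. In the cadmium library 1607 reached 10, 229 reached 100 and 31 reached 1000. The 10 highest loci held 23.7% of the summed FPKM of all spliced reference genes in the control and 50.3% in cadmium. A single locus held 19.4% of the cadmium sum. Fewer loci thus reached 10 or 100 FPKM in cadmium, and more of the sum sat in a few of them.

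Cadmium was set against control as a log2 ratio with 1 FPKM added to each value, which makes differences of weakly expressed loci look smaller. Expressed loci with a log2 ratio of 1 or more, a 2-fold difference, were called higher, and those with -1 or less were called lower. Of the 6628 expressed spliced reference genes, 3288 (49.6%) were lower in the cadmium library, 903 (13.6%) were higher and 2437 were neither. Over all 33904 loci of the series at 1 FPKM, 28.6% were lower and 20.6% higher. The median log2 ratio was -0.98 for the spliced reference genes and -0.07 for all loci, and the middle range of the former was -1.89 to 0.24. The count of lower loci exceeds its background share and that of higher loci falls below it, in a comparison without replicates. At a 4-fold limit 1531 (23.1%) were lower and 361 (5.45%) higher, against 14.1% and 7.86% of all loci.

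Loci listed at 0 in 1 library made up much of that difference. In cadmium 1687 of the expressed loci were listed at 0 (25.5%, against 11.9% of all loci). Such a locus reached 1 FPKM through the control alone, so with 1 FPKM added it is lower by construction, and the zeros and the lower calls are not separate observations. In the control 158 were listed at 0 (2.38%, against 3.92% of all loci). Where both libraries had a value above 0, 1601 of 4783 loci (33.5%) were lower and 745 (15.6%) were higher, with a median log2 ratio of -0.43. Over all 28532 loci of the series above 0 in both, 19.8% were lower and 19.8% higher, with a median of 0.06. Across those 4783 loci Spearman's rho between the control and cadmium FPKM was 0.56, against 0.46 across 1320 intronless reference genes and 0.72 across 14605 new splice forms. These values are descriptions across loci that share the same 2 libraries.

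**Figure D2:**
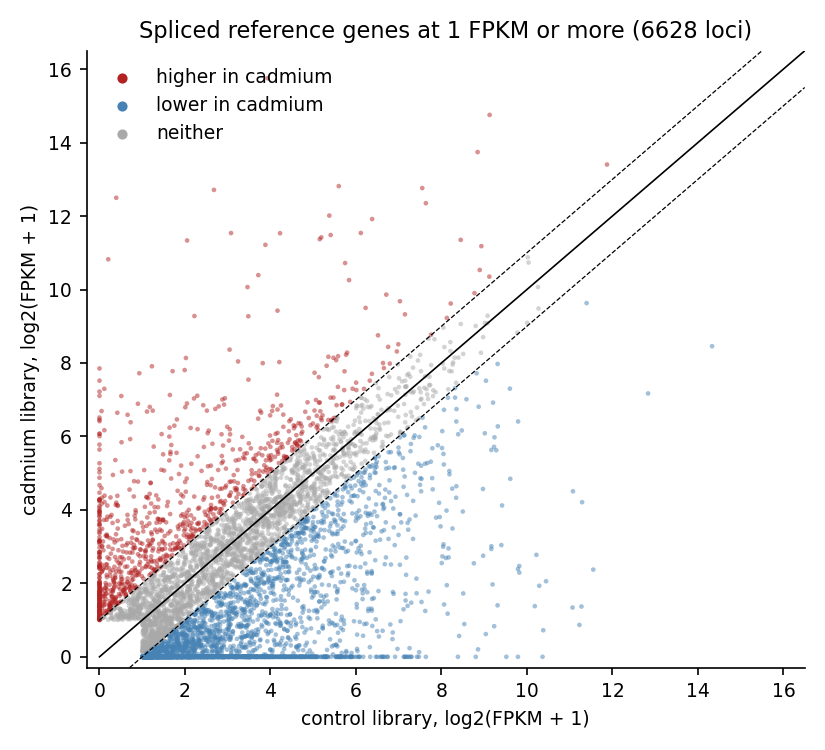
Each point is 1 of the 6628 expressed spliced reference genes, with log2(FPKM + 1) in the control library (x axis) and in the cadmium library (y axis). The solid line marks equality and the dashed lines a 2-fold difference; 3288 points are lower in cadmium (blue), 1687 of them on the axis at 0, and 903 are higher (red).

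The lean towards the control library was greatest in the short length classes. These classes include the 1083 expressed loci in shared spans, whose length is that of a bundle (median 10143 bases). The order was not worked out for loci with a span of their own alone. Of 920 expressed loci of 500 to under 1000 bases, 70.8% were lower in cadmium and 51.8% were listed at 0 there. The share of lower loci was 62.9% from 1000 to under 2000 bases, 47.4% from 2000 to under 5000, 32.8% from 5000 to under 10000 and 33.3% at 10000 or more. Median log2 ratios in the same order were -1.50, -1.31, -0.89, -0.36 and -0.36. The share of higher loci stayed between 10.2% and 15.4% in all 5 length classes. Across the 6628 loci Spearman's rho was 0.24 between the ratio and locus length. The gradient thus lay in the lower loci and the zeros of the cadmium library, while the higher share had no such order. In whole-root RNA, fewer cells of a type and less RNA per cell cannot be told apart.

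The same length classes can be read beside the other gene classes. New splice forms were lower in 34.1%, 30.9%, 18.1%, 13.7% and 8.96% of loci from the shortest to the longest class. In each length class that share was below that of the spliced reference genes. Intronless reference genes were lower in 60.1%, 48.7% and 23.4% of loci in the 3 shortest classes, and only 8 were expressed at 5000 bases or more. Locus length includes introns, so an intronless locus of a given length carries more transcript than a spliced one. No test can be given for these differences between classes.

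**Figure D3:**
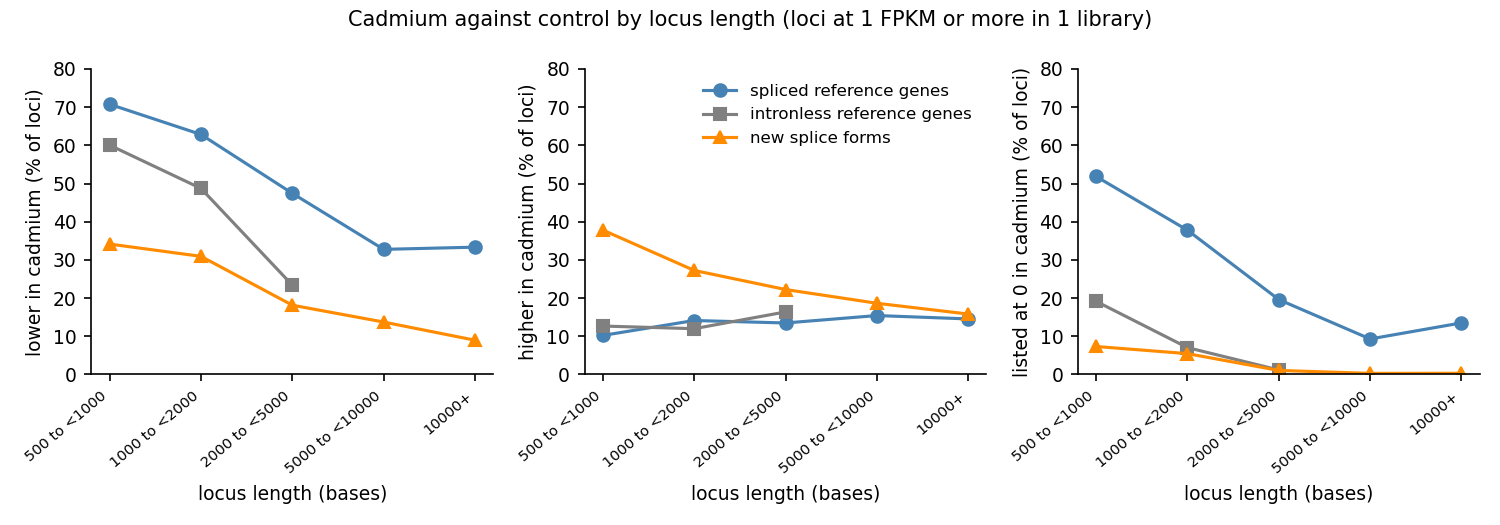
Share of expressed loci (y axes, %) that were lower in cadmium, higher in cadmium or listed at 0 in cadmium, by locus length class in bases (x axes), for 3 gene classes; classes with under 20 loci are not drawn. For spliced reference genes the lower share goes from 70.8% to 33.3% and the share at 0 from 51.8% to 13.5%, with loci in shared spans included.

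Restricting the loci to a mean of 10 FPKM or more, with shared spans included, kept the length gradient. Of 206 such spliced reference genes of 500 to under 1000 bases, 62.6% were lower in cadmium and 19.4% were at 0 there. At 10000 bases or more, 29.4% of 374 were lower and 4.01% were at 0. By mean level alone, the lower share went from 54.8% of 1877 loci at 1 to under 3 FPKM to 39.1% of 279 loci at 100 FPKM or more. The higher share went from 10.7% to 26.5% over the same range. Between the same classes it went from 12.6% to 23.9% in intronless reference genes and from 19.7% to 28.3% in new splice forms. Loci with a mean under 1 FPKM are left out of these ranges, because each reached 1 FPKM in 1 library only. Loci below 1 FPKM in both libraries could not enter that class. Of its 1035 loci, 66.7% were lower, 8.31% were higher and 259 were neither. Intronless reference genes had the opposite order for lower loci, 44.2% of 398 at 1 to under 3 FPKM and 61.4% of 88 at 100 FPKM or more. New splice forms were lower in 14.6% of 1502 and 21.0% of 1046 loci in the same classes. In the highest class the median log2 ratio was -0.31 for spliced and -2.54 for intronless reference genes.

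Listed exon length followed the zeros closely. With a listed exon under 100 bases, 35.5% of 1743 expressed loci were at 0 in cadmium. The share was 33.7% at 100 to under 200 bases, 22.5% at 200 to under 500, 10.7% at 500 to under 1000 and 1.94% at 1000 bases or more. The lower share went from 55.3% to 26.2% and the median log2 ratio from -1.13 to -0.19. The control medians of these classes lay between 3.99 and 5.13 FPKM. Both ends of the gene gave the same order: 35.8% to 1.99% at 0 for plus-strand 5′ exons and 35.0% to 1.90% for minus-strand 3′ exons. Within loci of 2000 to under 5000 bases with a span of their own, the share at 0 went from 30.3% to 3.17%. A listed exon of 1000 bases or more guarantees a long transcript, whereas a short one leaves the transcript length unknown.

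**Figure D4:**
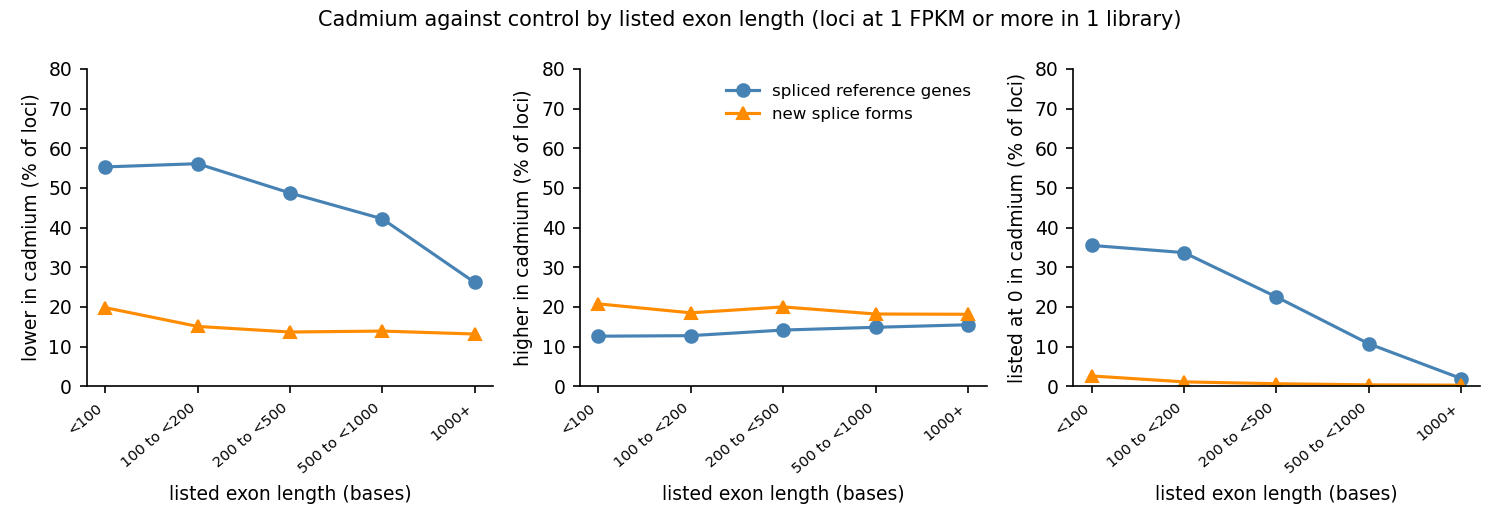
Share of expressed loci (y axes, %) that were lower in cadmium, higher in cadmium or listed at 0 in cadmium, by length class of the listed exon in bases (x axes). For spliced reference genes (blue) the share at 0 goes from 35.5% to 1.94%, and for new splice forms (orange) the lower share lies between 13.2% and 19.8%.

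The number of fragments behind 1 FPKM could be estimated. Fitted on intronless reference genes, each FPKM equalled 19.8 control or 11.9 cadmium fragments per kilobase, after 204 and 208 bases lost at the transcript ends. A spliced transcript of 624 bases at 1 FPKM thus rests on 8.33 control or 4.95 cadmium fragments. Any scaling between libraries by the authors' software is included in these numbers. Of the 241 genes with full structure, 35 were above 0. Their 45 values above 0 gave whole fragment numbers within 0.05 in 39 cases, so fragments can be counted for 32 of the 35 genes. The genes left out of the counts each had more FPKM in cadmium. C4783701:1609-2649 stood at 17.1 FPKM in the control library and 58.8 in cadmium, and C4791963:1887-2580 at 14.4 and 18.7. C4797887:2422-3430 stood at 18.7 and 95.6, and its 192 spliced bases are fewer than the 204 and 208 lost in the fit.

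Those 32 genes held 208 control and 73 cadmium fragments in all. Only 1 fragment over both libraries stood behind 11 of them, and at most 5 fragments behind 22. Of the 21 listed at 0 in cadmium, 18 had 5 or fewer control fragments. The other 3 had over 10 control fragments and were picked for that and for their 0, so their intervals describe counting error and show no difference between the groups. The 9-exon gene C4793669:320-3129, with 1113 spliced bases, had 22 control fragments (1.22 FPKM) and 0 in cadmium. The exact 95% conditional binomial (Clopper-Pearson) interval of its cadmium to control ratio, adjusted for depth, reached 0.31. The 2-exon gene C4767395:521-1156 had 23 control fragments (6.33 FPKM) and 0 in cadmium, with an interval up to 0.30. A 2-exon gene at C4775341:14-1525 had 12 control fragments and 0 in cadmium, with an interval up to 0.61. In the reverse direction, 4 of the 32 genes were listed at 0 in the control. The 3-exon gene C4799099:543-1216, picked in the same way, had 0 control and 11 cadmium fragments (6.22 FPKM), with an interval from 4.30. The rest of the 4 had 3 or fewer cadmium fragments.

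Genes of this set with fragments in both libraries varied in direction. The 13-exon gene C4796157:392-3275 had 29 control and 5 cadmium fragments, a ratio of 0.29 (interval 0.09 to 0.75). The 7-exon gene C4781467:278-2311 had 31 and 6, a ratio of 0.32 (interval 0.11 to 0.79). The 3-exon gene C4780105:285-1350 had 45 and 22, a ratio of 0.83 (interval 0.47 to 1.41), so no difference was detectable there. In the other direction, C4792325:5-2687 and C4795295:140-2324 each had 2 control and 10 cadmium fragments, a ratio of 8.37 for both. Their intervals began at 1.78. These intervals cover counting error only, since PCR copies of a molecule cannot be recognised without identifiers. The spread between plants was not measured.

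Some loci listed at 0 in cadmium had many control fragments. In the loci with a span of their own and a listed exon of 500 bases or more, that exon sets a lower limit on the fragments, if the listed transcript is the only one. At least 29 control fragments were ensured in this way for 682 loci, of which 44 (6.45%) were listed at 0 in cadmium, against 3.13% of all loci chosen in this way. In the reverse direction, with at least 17 cadmium fragments, 7 of 556 loci (1.26%) were listed at 0 in the control, against 2.28% of all loci. Each choice favours loci that are high in the library it uses. Of the 682 chosen by control fragments, 43.8% were lower and 7.62% higher in cadmium, against 28.0% and 12.2% of all loci. Of the 556 chosen by cadmium fragments, 19.96% were lower and 20.7% higher, against 14.4% and 23.0% of all loci. The most deeply covered of the 44, scaffold9152:28076-30411, has a listed exon of 753 bases and stood at 141.7 FPKM in the control, at least 1543 fragments by this limit. Whether a listed 0 stands for no fragments or for an estimate that failed was not tested.

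Loci with the same coordinates on different scaffolds were nearly always at 0. Among loci with a span of their own, 216 had the same start, end, listed exon and strand as a locus on another scaffold, in 108 pairs. Their median length was 1654.5 bases, and the longest pair was scaffold22566:6664-37780 and scaffold30207:6664-37780, each at 0 in both libraries. FPKM was above 0 for 1 of the 216 (0.46%), against 18.6% of all loci with a span of their own. The exception, scaffold30263:17963-24497, stood at 0.65 FPKM in the control library and 2.46 in cadmium, while its counterpart on scaffold12132 was at 0 in both. How the authors treated reads that fit several places is not given in the sources used here, and its part in these zeros was not tested.

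Single genes differed far more than the medians, and 2099 had values of 1 FPKM or more in each library and of 10 in 1 of them. Of these, 188 (8.96%) were at least 4-fold higher and 435 (20.7%) at least 4-fold lower in cadmium, on the ratio of FPKM values. The shares were 9.39% and 10.9% over the 15757 loci of the series that met the same limits. At least 100-fold differences were found for 12 higher (0.57%) and 18 lower (0.86%) loci, against 0.317% and 0.336% of all loci. The 6 highest and 6 lowest log2 ratios, with 1 FPKM added, are given here by position, since no gene name is known. The highest belonged to the plus-strand locus C4930213:10955-24446, at 14.3 FPKM in the control library and 55194 in cadmium. This locus held the 19.4% of the cadmium sum noted above, and 460 bases upstream lay an unstranded intergenic locus at 0.40 and 1943 FPKM.

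The other 5 highest log2 ratios stood for FPKM ratios between 167-fold and 1242-fold. The minus-strand locus C4936261:655-4669 stood at 5.40 FPKM in the control library and 6709 in cadmium. Its control value rests on at most 408 fragments, the number that the full locus length would hold. A minus-strand locus in the shared span scaffold5661:59835-61582 stood at 3.14 and 2582 FPKM, and the antisense locus in that span at 0.93 and 1005. Without stated strandedness, reads of these 2 cannot be told apart with certainty. The locus scaffold23251:48444-49278 stood at 7.44 and 2969 FPKM, from at most 93 control fragments. The remaining 2, scaffold24178:15211-18588 and scaffold761:20411-21329, stood at 13.7 and 17.7 FPKM in the control and at 2378 and 2961 in cadmium.

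The 6 lowest log2 ratios stood for FPKM ratios between 441-fold and 1565-fold in favour of the control. The plus-strand locus scaffold7194:135754-137509 stood at 2478 FPKM in the control library and 1.58 in cadmium, from at most 29 cadmium fragments. A locus in the shared span C4944651:18458-36871 stood at 2144 and 1.53 FPKM. The locus scaffold6751:76489-78436 stood at 3002 and 4.19 FPKM. All 3 are plus-strand models whose listed 5′ exon has between 79 and 203 bases. The other 3 were scaffold17111:12115-13375 at 1163 and 1.60 FPKM, scaffold26550:28139-28779 at 1396 and 3.16, and scaffold7216:99206-100516 at 1250 and 2.82. Their cadmium values rest on at most 20, 16 and 37 fragments. In the shared span on C4944651 another plus-strand reference locus went the other way, at 0.78 FPKM in the control library and 2.84 in cadmium. How reads were split between overlapping loci was not tested.

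For 5 of these 12 loci the nearest other locus was a new splice form. Those nearest to scaffold17111:12115-13375 and scaffold7216:99206-100516 stood at 43.3 FPKM in the control library against 26.7 in cadmium and at 5.55 against 5.72, within the 2-fold limit. The one nearest to scaffold7194:135754-137509 stood at 0.37 and 1.08 FPKM, a log2 ratio of 0.60. The one nearest to scaffold23251:48444-49278 was higher in cadmium, as that gene was, at 19.9 and 55.7 FPKM. The one nearest to scaffold24178:15211-18588 was lower, at 43.0 and 20.2 FPKM, whereas that gene was higher. The 12 loci were picked for extreme ratios, so smaller differences in the loci beside them say nothing about splice forms.

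Outside that selection, some loci with under 1 FPKM in 1 library had larger or similar ratios, and they were chosen after their values were seen. The plus-strand locus scaffold4551:74698-76098 stood at 0.31 FPKM in the control library and 5778 in cadmium, the highest log2 ratio of all expressed spliced reference genes (12.10). At most 7 fragments stand behind its control value. The new splice form nearest to it, 1418 bases away, stood at 3.32 and 4.40 FPKM. The minus-strand locus scaffold16212:29397-32997, the only locus of the series on its scaffold, stood at 0.15 and 1810 FPKM, from at most 10 control fragments. In the other direction scaffold20899:38848-39921 stood at 2398 FPKM in the control library and 0.83 in cadmium, from at most 8 fragments.

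The highest values facing a 0 were larger on the control side. Listed at 0 in cadmium were the minus-strand locus of the shared span scaffold12025:16758-19090, at 1319 FPKM in the control, C4965067:56443-58510 at 884 and scaffold14503:91353-91887 at 732. The plus-strand reference locus that shares the span on scaffold12025 stood at 64.1 FPKM in the control library and 0.16 in cadmium. Listed at 0 in the control were scaffold113:474468-476522 at 229.8 FPKM in cadmium, scaffold18048:12672-13249 at 182.4 and scaffold14716:9553-11098 at 148.2. Thus each of the 3 control values exceeds each of the 3 cadmium values.

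At 1000 FPKM or more in at least 1 library there were 48 spliced reference genes, of which 28 (58.3%) were higher in cadmium, 15 (31.25%) lower and 5 neither. A high value in either library favours loci that differ. Of all 317 loci of the series at this level 43.5% were higher and 48.3% lower, and of the 182 with 500 bases or more 48.9% were higher and 37.9% lower. Only 1 of the 48 was listed at 0 in a library. By mean log2 level the first was scaffold6824:51408-53070, at 3753 FPKM in the control library and 10827 in cadmium, 2.88-fold higher. The locus scaffold16557:29009-31793, with a listed 5′ exon of 57 bases, stood at 558 and 27632 FPKM. Loci of the shared spans scaffold22637:8512-12959 and scaffold7038:46575-64585 went in opposite directions, at 20622 and 350.1 FPKM and at 459 and 13697 FPKM. In both spans the overlapping locus of another class leaned the same way, at 1501 and 24.6 FPKM and at 13.1 and 579 FPKM.

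Smaller differences among the abundant loci were those of scaffold26531:9710-10920, at 2695 FPKM in the control library and 791 in cadmium, and scaffold12652:129644-132878, at 1038 and 1881. The first has a listed 5′ exon of 15 bases and was 3.41-fold lower in cadmium. The second was 1.81-fold higher, short of the 2-fold limit. Among the 50 highest loci the ratios nearest to equality were those of scaffold17577:144793-145875, at 538.65 and 540.7 FPKM, and scaffold3661:18815-20882, at 516.75 and 543 FPKM. Their log2 ratios of 0.01 and 0.07 turned below 0 when the cadmium library was scaled to a median ratio of 0 or to equal upper quartiles, so no direction is given for them.

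Among the 4 longest loci with 1 FPKM in both libraries and 10 in 1, 3 stayed within 2-fold. The locus scaffold5154:15421-180264 stood at 11.9 FPKM in the control library and 9.89 in cadmium. The locus scaffold4642:122278-228270 stood at 10.50 and 17.7 FPKM, and scaffold9772:73996-167075 at 24.7 and 17.4. None of these 3, with spans of their own between 93080 and 164844 bases, differed by 2-fold. The fourth lies in the shared span scaffold1493:171452-341415, whose length is not that of the gene alone, and stood at 38.75 and 13.2 FPKM, 2.94-fold lower in cadmium. At the other end of the range, the shortest loci reaching 10 FPKM were lower in cadmium. The 500-base locus scaffold2052:26255-26754 stood at 35.6 FPKM in the control and was listed at 0 in cadmium. The 504-base locus C4945823:28098-28601 stood at 44.5 and 0.81 FPKM, the latter from at most 2 fragments.

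**Figure D5:**
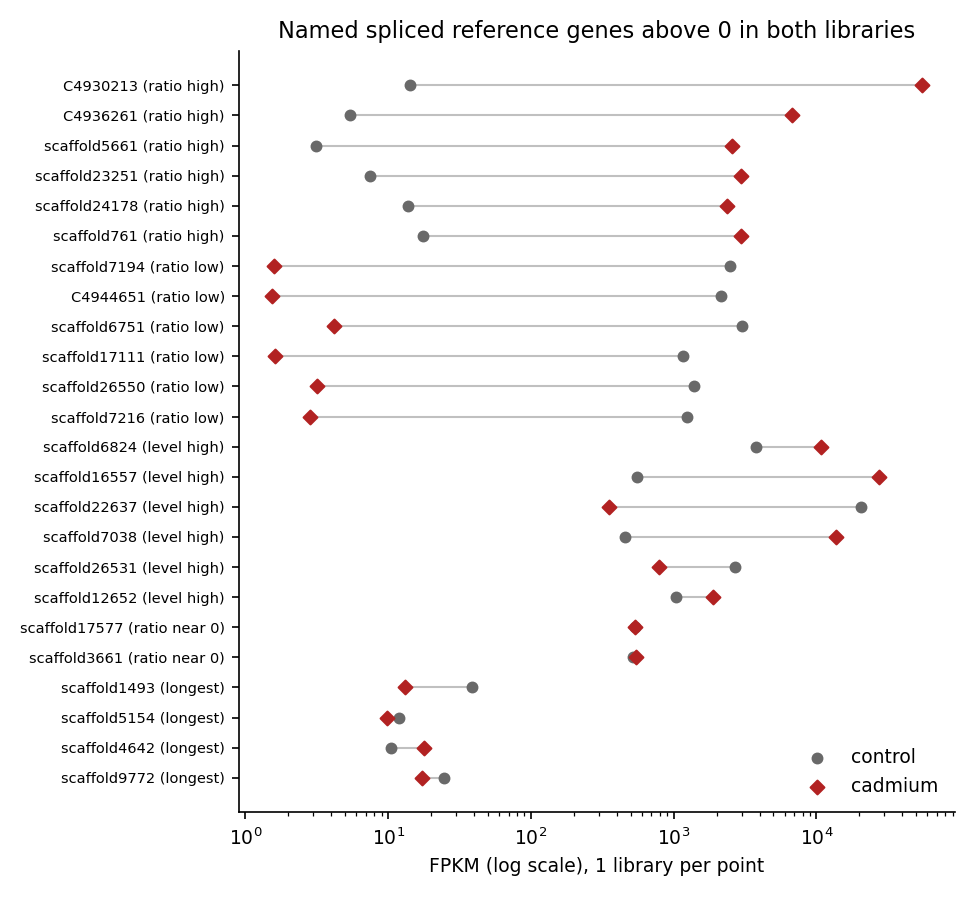
FPKM on a log scale (x axis) in the control (grey circles) and cadmium (red diamonds) libraries for 24 spliced reference genes named by scaffold or contig (y axis), 1 library per point. Loci with the 6 highest and 6 lowest log2 ratios differ by between 167-fold and 3867-fold in FPKM. The longest loci lie between 9.89 and 38.75 FPKM in both libraries.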

How the data were processed

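RNA of 2 root libraries, 1 per group, was measured by Illumina sequencing after TRIzol extraction, per the labels' protocols. The submitters' processing notes name TopHat2 2.0.13 and also Cufflinks 2.2.1 with Cuffnorm 2.2.1. Not given in the sources used here were settings, strandedness, reads sequenced and genome build. For each locus the authors deposited an FPKM value per library, the locus span, and the start and end of 1 exon per locus, as the file headers and layout show. Read counts were not used here. Ratios used a pseudocount of 1, a minimum of 1 FPKM in 1 library and a 2-fold size rule on all loci. No test was possible with 1 library per group. Fragment numbers came from the step between FPKM values of intronless reference genes, fitted on those under 12 fragments; 95.9% (control) and 89.1% (cadmium) of their values above 0 came out whole within 0.05. Fitted under 10 fragments, a limit tried after results were seen, the shares were 95.9% and 87.0%. Calculations were tested on simulated data. Members, classes and lists were chosen with earlier results of these data known. Loci were named by fixed ranks of ratio, level and length, except those said to be chosen after their values were seen. Positions are 1-based. Alternatives were other pseudocounts, filters, scalings, folds and subsets. Software was scipy 1.17.1, pandas 2.3.3 and numpy 2.4.6 under Python 3.11.15, with matplotlib 3.10.9 for plots.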

Additional observations from a re-analysis of the deposited data

How the results depend on the processing

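No paired analysis was possible because there was a single library per group, so leaving a library out was not possible either. Lower spliced reference genes outnumbered higher ones with all pseudocounts, filters, scalings, folds and subsets tried. Counts moved by over 1.5 times with a pseudocount of 5 (480 higher or 7.24%, 1430 lower or 21.6%) and with a 4-fold rule. The 4-fold rule gave 361 higher and 1531 lower, against 7.86% and 14.1% of all loci. The lower count also moved that far at 5 FPKM (1669 of 3670, 45.5%) and above 0 in both libraries (1601), which test fewer loci. Shares over all loci were not computed for the pseudocount of 5 or the 5 FPKM filter, so no excess over the series is claimed there. The median log2 ratio of -0.98 was 0 when unfiltered, where most loci are 0 in both libraries, -1.40 with a pseudocount of 0.1, -0.35 with one of 5, and -0.75 at 5 FPKM. It was -1.05 with equal upper quartiles, -0.87 with equal sums without the 20 highest loci, -0.43 above 0 in both libraries and -0.84 at 1000 bases or more. In subsets chosen after seeing the data it was -1.02 for spans of their own and -0.47 for listed exons of 500 bases or more. That exon subset held 205 higher (15.1%) and 490 lower (36.1%) of 1357 loci, with no share over all loci computed. On the log2 scale the cadmium shifts were -0.08 for a median ratio of 0, -0.19 for upper quartiles and 0.17 for sums. Of the named loci only the most equal pair reversed: scaffold17577:144793-145875 to -0.079 and -0.18, and scaffold3661:18815-20882 to -0.013 and -0.12, with the median ratio set to 0 and with equal upper quartiles. Other causes of these moves were not tested. At the depth given for a spliced transcript of 624 bases at 1 FPKM (4.95 cadmium fragments), a listed 0 does not show absence, and the part of depth in the zeros was not tested.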
